A study of Mus musculus with 8 samples.

Results

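The genes described here are 9 that mark megakaryocytes, platelets and the HSCs biased towards that lineage: Itga2b, Itgb3, Selp, Vwf, Gp1bb, Gp9, Pf4, Cd9 and Rab27b. They were chosen by symbol, with the difference between MitolΔ/Δ and control HSCs already known for some of them, so their values in this contrast are given as a description and carry no test. Rows for 8 of the 9 were found among the 22065 named genes of the count table, and Gp1bb is not analysed here. All 8 passed the expression filter that left 16444 genes.

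RNA-seq was performed on 8 libraries of 100 sorted HSCs each, 4 labelled Mitol KO and 4 labelled Control, from bone marrow of C57BL/6 mice aged 8 to 10 weeks, 1 week after Poly:IC. The MitolΔ/Δ mice carried Mitol Flox/Flox and MX1-cre, a recombinase under a promoter that responds to interferon in many cell types, and the controls carried Mitol Flox/Flox without the transgene. Both groups received Poly:IC, itself an inducer of interferon. HSCs were sorted as CD150+ CD48- EPCR+ lineage-negative cells that express c-Kit, and the labels do not say which libraries came from separate animals, so the p-values given below measure the spread between these libraries, which may be technical. MITOL is a ubiquitin ligase of the outer mitochondrial membrane encoded by Marchf5.

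Platelets are shed by megakaryocytes, large marrow cells that arise from HSCs through committed progenitors and, for a share of HSCs, by a more direct route. A subset of HSCs already transcribes genes of this lineage, Vwf and Itga2b among them, and such cells are described as platelet-biased. The proteins fall into surface receptors that bind collagen, fibrinogen and Von Willebrand factor, alpha granules that store adhesive proteins and chemokines, dense granules that store small molecules, and the secretion machinery that empties both.

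The members lie on 6 chromosomes of GRCm39 (GENCODE vM39). Selp lies on chr1:163942833-163977595 on the plus strand, 1693 bases from F5. Itga2b (chr11:102341397-102360955, minus strand) and Itgb3 (chr11:104498826-104561302, plus strand) are 2.14 Mb apart. Cd9 (chr6:125437210-125471778, minus strand) and Vwf (chr6:125523737-125663642, plus strand) are 52.0 kb apart, and Gp9 (chr6:87755047-87756750, plus strand) is on the same chromosome. Pf4 (chr5:90918479-90922110, plus strand) is 548 bases from Ppbp, another platelet chemokine gene, and the remaining member is Rab27b. Gp1bb (chr16:18439067-18441153, minus strand) has all of its exon bases inside Septin5 and 41.5% of them inside Gm49601, both on its own strand.

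The 250 bases before the annotated start of the canonical transcript are printed from GRCm39 for 4 members: Selp and Pf4, which moved in opposite directions, and Itga2b and Itgb3, whose products pair on the platelet surface. They were searched on both strands for letters that GATA factors such as GATA1 bind, which were AGATAA or else TGATAA, and letters that ETS factors such as FLI1 bind, which were CGGAAG or else AGGAAG. Capitals mark such letters on either strand.
Selp (chr1:163942583-163942832, plus strand): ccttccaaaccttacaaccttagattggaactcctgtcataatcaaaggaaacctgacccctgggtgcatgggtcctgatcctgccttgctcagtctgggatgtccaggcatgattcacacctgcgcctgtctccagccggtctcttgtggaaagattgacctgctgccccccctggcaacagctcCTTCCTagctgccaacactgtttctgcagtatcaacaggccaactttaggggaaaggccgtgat
Itga2b (chr11:102360710-102360959, minus strand): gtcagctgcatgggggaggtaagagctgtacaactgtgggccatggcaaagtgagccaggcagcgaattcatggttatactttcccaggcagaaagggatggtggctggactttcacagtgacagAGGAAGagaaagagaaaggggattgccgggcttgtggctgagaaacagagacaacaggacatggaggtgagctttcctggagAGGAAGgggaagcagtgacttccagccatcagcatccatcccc
Itgb3 (chr11:104498576-104498825, plus strand): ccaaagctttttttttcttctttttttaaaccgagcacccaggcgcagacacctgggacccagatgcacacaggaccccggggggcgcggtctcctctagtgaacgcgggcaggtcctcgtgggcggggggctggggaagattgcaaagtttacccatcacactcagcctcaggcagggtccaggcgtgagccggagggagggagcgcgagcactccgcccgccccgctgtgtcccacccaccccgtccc
Pf4 (chr5:90920007-90920256, plus strand): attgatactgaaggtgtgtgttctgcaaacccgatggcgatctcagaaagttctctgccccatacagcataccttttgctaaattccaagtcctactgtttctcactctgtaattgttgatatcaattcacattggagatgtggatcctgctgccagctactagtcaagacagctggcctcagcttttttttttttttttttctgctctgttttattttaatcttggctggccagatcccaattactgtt

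The Itga2b window held AGGAAG at 125 to 120 and again at 43 to 38 bases before the start. In the Selp window the same letters were found once, on the minus strand, at 64 to 59 bases, where the plus strand reads CTTCCT. Neither family's letters were found in the Itgb3 and Pf4 windows, which says only that these letters are not in them. The Vwf window held TGATAA at 69 to 64 bases and AGGAAG at 41 to 36 bases, both on the minus strand, and the Gp9, Cd9 and Gp1bb windows held 1 ETS match each and no GATA match. The Pf4, Vwf and Gp1bb windows lie inside the gene spans given above, and most of the Itga2b window does too. Other annotated transcripts of these genes start upstream of the canonical one, and the bases before those starts were not searched. Over the windows of 21751 coding genes, 15.9% held a GATA match, 39.3% an ETS match and 5.24% both.

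Among the 8 members, Selp was past the threshold as higher in MitolΔ/Δ HSCs and Pf4 as lower, and the other 6 were not past it. The threshold is an adjusted p under 0.05 by the quasi-likelihood test of edgeR over all tested genes, with Benjamini-Hochberg adjustment. It called 8.43% of all tested genes, 4.68% as higher and 3.75% as lower. Since the members were chosen with this contrast known, nothing is read from their count against these shares. The values below are normalized counts, that is, read counts scaled by DESeq2's size factor of each library, in replicates 1 to 4 of each group. Fold changes are those of edgeR on the log2 scale, MitolΔ/Δ over control, with their standard errors.

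**Figure D1:**
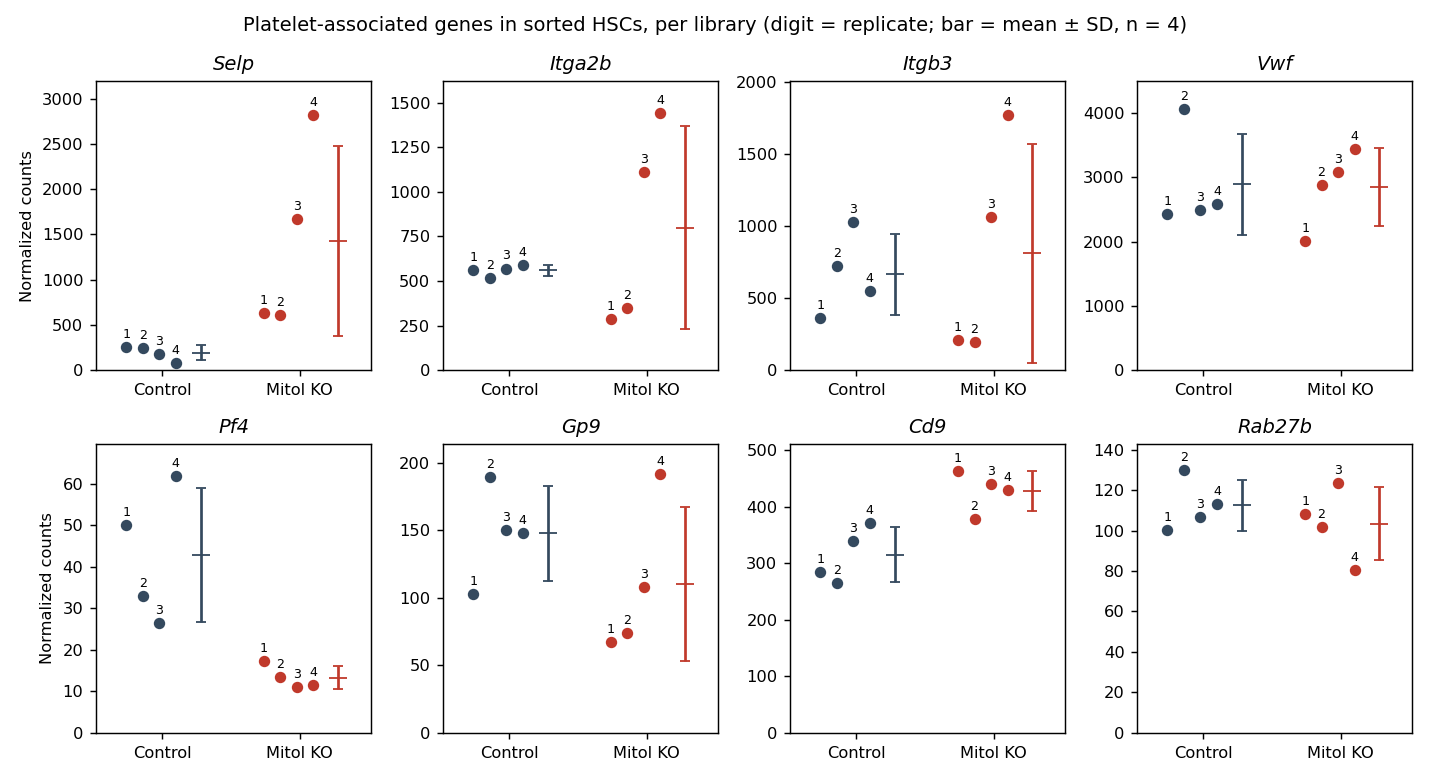
Normalized counts (y axis, linear, from 0) of the 8 members in each control (blue) and Mitol KO (red) library, with the replicate number above each point and the mean ± SD of 4 libraries beside each group. Selp lies above every control in all 4 Mitol KO libraries and Pf4 below every control, while Itga2b and Itgb3 lie above every control in Mitol KO replicates 3 and 4 and below every control in replicates 1 and 2.

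Selp encodes P-selectin, an adhesion receptor held in the alpha granules of platelets and the storage bodies of endothelial cells until activation brings it to the surface. Its normalized counts were 627, 609, 1665 and 2820 in MitolΔ/Δ replicates 1 to 4 and 261, 246, 183 and 79.0 in control replicates 1 to 4. Every MitolΔ/Δ library was above every control library, but the MitolΔ/Δ libraries themselves spread over a range of 4.63 times and the control libraries over 3.30 times. The means were 1430 ± 1050 and 192 ± 82.7 (SD, n = 4), a ratio of 7.44, with a log2 fold change of 2.89 (SE 0.50). Its log2 fold change ran from 2.35 to 3.15 over the left-out libraries and the alternative settings, which is a description, since Selp was listed as a gene that rises in this contrast. Selp made up 21.8% of the normalized counts on the 8 members in MitolΔ/Δ HSCs and 3.90% in control HSCs.

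An antisense long noncoding RNA, Gm16548, covers 20.8% of the exon bases of Selp. It had 18.8, 4.16, 28.4 and 31.7 normalized counts in the MitolΔ/Δ libraries and 1.32, 0, 0.942 and 8.98 in the controls, too few to pass the filter. The strand setting of the counting is not given in the sources used here, so reads from the shared exons cannot be assigned to either gene with certainty. Gm16548 had fewer counts than Selp in every library, which does not bound those reads while the strand setting is not known. The antisense RNAs Gm69625 and Gm74331 had no row among the named genes. They cover 5.21% of the exon bases of Selp and 10.3% of those of Itga2b, respectively, with the same limit.

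Vwf encodes Von Willebrand factor, the large adhesive protein that tethers platelets to injured vessel walls and the best known mark of platelet-biased HSCs. Its normalized counts were 2006, 2885, 3074 and 3442 in MitolΔ/Δ libraries and 2427, 4059, 2486 and 2589 in controls. The groups overlapped and had nearly the same means, 2852 ± 609 and 2890 ± 782 (SD, n = 4). The log2 fold change was -0.04 (SE 0.19) and lay between -0.12 and 0.17 with any library left out and under the other settings. Control replicate 2 stood above the other 3 controls. The difference between the means was smaller than the spread between libraries in either group.

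Itga2b and Itgb3 encode CD41 and CD61, the alpha and beta chains of the platelet fibrinogen receptor. Itga2b had 286, 351, 1111 and 1440 normalized counts in MitolΔ/Δ libraries and 560, 519, 570 and 589 in controls. Controls were tight, with an SD of 29.5 around a mean of 560, and no MitolΔ/Δ library fell among them: replicates 1 and 2 were below every control and replicates 3 and 4 above every control. The MitolΔ/Δ mean was 797 ± 569 (SD, n = 4), and the log2 fold change was 0.49 (SE 0.41).

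Itgb3 had 212, 196, 1066 and 1771 normalized counts in MitolΔ/Δ libraries and 360, 725, 1026 and 550 in controls. Again replicates 1 and 2 were below every control, and replicates 3 and 4 were above every control, replicate 3 by a small margin. The means were 811 ± 758 and 665 ± 283, and the log2 fold change of 0.27 (SE 0.58) moved between -0.44 and 0.59 over the settings and left-out libraries, so it has no settled sign. Within the MitolΔ/Δ group the highest library exceeded the lowest 9.02 times for Itgb3 and 5.03 times for Itga2b, against 2.85 times and 1.13 times within the controls.

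Gp9 encodes glycoprotein IX, which joins the products of Gp1ba and Gp1bb in the receptor for Von Willebrand factor. It had 67.3, 73.8, 108 and 191 normalized counts in MitolΔ/Δ libraries and 103, 189, 151 and 148 in controls. Replicates 1 and 2 were again below every control, and replicate 4 was above every control. The means were 110 ± 57.1 and 148 ± 35.4, with a log2 fold change of -0.45 (SE 0.31). Of the 8 fits with 1 library left out, Gp9 was past the threshold, as lower, in the fit without MitolΔ/Δ replicate 4. Of its partners, Gp1ba had 104 ± 21.4 normalized counts in MitolΔ/Δ HSCs and 123 ± 11.5 in controls (log2 fold change -0.27, SE 0.20, adjusted p = 0.421 by edgeR). Gp5, a further subunit of that receptor, had 19.1 ± 7.14 and 28.9 ± 17.7 (log2 fold change -0.61, SE 0.49, adjusted p = 0.460 by edgeR).

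Pf4 encodes platelet factor 4, a chemokine that fills the alpha granules. Its normalized counts were 17.2, 13.5, 11 and 11.6 in MitolΔ/Δ libraries and 50.1, 33.0, 26.4 and 62.0 in controls. Every MitolΔ/Δ library was below every control, and the means of 13.3 ± 2.80 and 42.9 ± 16.2 (SD, n = 4) differed 3.21 times, a log2 fold change of -1.69 (SE 0.37). These values rest on 11 to 69 reads per library. The gene was no longer past the threshold when MitolΔ/Δ replicate 2, MitolΔ/Δ replicate 3 or control replicate 4 was left out, at log2 fold changes that stayed between -1.86 and -1.44 over every setting and left-out library. Its neighbour Ppbp had too few counts to be tested, 3.91, 0, 1.83 and 0 normalized counts in MitolΔ/Δ libraries and 2.64, 25.5, 6.59 and 6.29 in controls.

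Cd9 encodes a tetraspanin abundant on platelets and also present on HSCs. It had 463, 379, 441 and 430 normalized counts in MitolΔ/Δ libraries and 285, 266, 340 and 371 in controls. The groups did not overlap, and the means were 428 ± 35.6 and 315 ± 48.5 (SD, n = 4). The log2 fold change of 0.42 (SE 0.13) was not past the threshold in edgeR and was past it in DESeq2. Non-overlapping groups were found in 15.4% of all tested genes and in 3 of the 8 members, Selp and Cd9 with MitolΔ/Δ higher and Pf4 with MitolΔ/Δ lower. The antisense RNA Gm26728 covers 11.4% of the exon bases of Cd9.

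Rab27b encodes a small GTPase that docks dense granules and is the main Rab27 protein of platelets. It had 108, 102, 124 and 80.4 normalized counts in MitolΔ/Δ libraries and 100.2, 130, 106 and 113 in controls. The groups overlapped, at means of 103 ± 17.9 and 112 ± 12.7 and a log2 fold change of -0.14 (SE 0.19). Its paralogue Rab27a, which serves granule release in many blood cells, rose in MitolΔ/Δ HSCs, from 893 ± 77.0 to 1321 ± 159 normalized counts (log2 fold change 0.55, SE 0.11, adjusted p = 0.0158 by edgeR, 4 of 4 libraries above every control). Without control replicate 2 the adjusted p of Rab27a was 0.0538.

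To compare levels between genes, normalized counts were divided by the length of all annotated exons. This length joins the exons of every annotated transcript (11.9 kb for Rab27b, 2.46 kb for Pf4). Where a shorter transcript is expressed the level is understated, so the order depends on this divisor. In control HSCs the order of this level per kb was Vwf (173 ± 46.8), Gp9 (166 ± 39.9), Cd9 (148 ± 22.8), Itgb3 (101 ± 42.7), Itga2b (68.4 ± 3.60), Selp (43.5 ± 18.7), Pf4 (17.4 ± 6.58) and Rab27b (9.42 ± 1.07). Of neighbours in that order, the libraries of Itga2b and Selp did not overlap, and all other neighbours overlapped. In MitolΔ/Δ HSCs Selp came first, at 324 ± 238, and Cd9, Vwf, Gp9, Itgb3 and Itga2b followed at 201 ± 16.7, 170 ± 36.4, 124 ± 64.3, 123 ± 115 and 97.4 ± 69.5. Rab27b (8.67 ± 1.5) and Pf4 (5.42 ± 1.14) came last. Of neighbours in this order, the libraries of Itga2b and Rab27b did not overlap, and all other neighbours overlapped.

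The libraries were also compared by markers of other cells that a sort could hold. The summed level of 10 erythroid markers was 105 and 118 CPM (counts scaled to the library total) in MitolΔ/Δ replicates 1 and 2, 435 and 321 in replicates 3 and 4, and 37.3 to 95.3 in controls. In replicate 3 the red-cell membrane gene Slc4a1 had 1387 normalized counts and the globin gene Hba-a1 had 388, while Slc4a1 was between 0 and 13.2 in every other library. In replicate 4 the carbonic anhydrase gene Car1 had 523. Of the 5 erythroid markers tested, the globin gene Hbb-bt rose, from 454 ± 213 to 1114 ± 354 normalized counts (adjusted p = 0.0442 by edgeR, 4 of 4 libraries above every control), and lost its call in 5 of the 8 left-out fits. The summed neutrophil and monocyte markers were also highest in these libraries, at 89.2 and 105 CPM. Replicates 1 and 2 had 50 and 62.5 CPM, and controls 43.4 to 64.7 CPM. Of that sum 91.8% came from Prtn3, which was not past the threshold (log2 fold change 0.76, adjusted p = 0.0674 by edgeR). Some others of the list went the other way. S100a8 had 0 normalized counts in replicates 3 and 4 and 0 to 51.2 in controls. S100a9 had 0 in every MitolΔ/Δ library and 2.64 to 21.3 in controls. Mpo had 0 in replicates 3 and 4 against 6.26 and 10.4 in replicates 1 and 2. Elane, Ltf, Ngp and Camp had at most 22.6 in any library. Replicates 3 and 4 of MitolΔ/Δ are the libraries in which Itga2b and Itgb3 were highest, and the part of erythroid or myeloid cells in those values was not tested.

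When MitolΔ/Δ replicates 3 and 4 were both left out, an alternative chosen after seeing the data, the log2 fold change of Selp was 1.70, against 2.89 with all libraries, and still past the threshold. Itga2b, Itgb3 and Gp9 were then past it as lower, at log2 fold changes of -0.81, -1.70 and -1.07. Pf4 was not past it in that fit, at -1.46, and Vwf, Cd9 and Rab27b were at -0.24, 0.42 and -0.10. These libraries had already been seen to lie above every control for Itga2b and Itgb3, and replicate 4 for Gp9. The lower values of these genes without them follow from that choice. The value of Selp is a description here too.

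The 8 mature platelet and megakaryocyte markers with rows summed to 187 to 384 CPM in MitolΔ/Δ libraries and 366 to 497 CPM in controls, and 92.8% of that sum came from Slc18a2, the vesicle transporter that fills dense granules. Slc18a2 had 1789, 1644, 2690 and 3501 normalized counts in MitolΔ/Δ libraries and 3214, 4182, 4404 and 3360 in controls, and was not past the threshold (log2 fold change -0.67, SE 0.21, adjusted p = 0.0669 by edgeR). Of the other 7 markers, Tubb1 was called lower and 0 were called higher by edgeR. In MitolΔ/Δ libraries Gp1ba had 75.1 to 123 normalized counts, P2ry12 21.1 to 45.4, Treml1 18.8 to 54.0, Gp5 11.4 to 26.5, Clec1b 6.23 to 15.9, Tubb1 0.783 to 5.20 and Ppbp 0 to 3.91. In controls Gp1ba had 106 to 133, P2ry12 21.3 to 48.5, Treml1 12.8 to 38.2 and Gp5 12.2 to 44.9. Clec1b had 9.23 to 70.9 there, Tubb1 11.3 to 33.2 and Ppbp 2.64 to 25.5. Among controls, replicate 4 was highest for each of these except Treml1 and Ppbp, and also for Pf4. The part of megakaryocytes in the members' values was not tested.

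Endothelial cells also make P-selectin and Von Willebrand factor. The 8 endothelial markers with rows summed to 495 to 528 CPM in MitolΔ/Δ libraries and 613 to 707 CPM in controls, 70.4% of it from Tie1, which HSCs express too. Tie1 was itself called lower, from 4222 ± 146 to 3518 ± 118 normalized counts (log2 fold change -0.28, SE 0.07, adjusted p = 0.0346 by edgeR, 4 of 4 libraries below every control). That call was lost in each of the 8 left-out fits. Cdh5, a gene that defines endothelial cells, was between 0 and 7.04 normalized counts in every library, and Emcn between 136 and 228. Cldn5 had 2.35, 9.35, 52.2 and 134 normalized counts in MitolΔ/Δ libraries and 39.6, 23.4, 12.2 and 9.88 in controls, highest in replicates 3 and 4, in which Selp was also highest, and was not past the threshold (log2 fold change 1.22, adjusted p = 0.401 by edgeR). Robo4 had 1046 to 1459 normalized counts in MitolΔ/Δ libraries and 1396 to 1725 in controls, and was not past the threshold (log2 fold change -0.39, adjusted p = 0.0579 by edgeR). Kdr, Plvap and Ptprb had at most 64.6, 20.2 and 35.9 normalized counts in any library. The part of endothelial cells in the values of Selp and Vwf was not tested. B-lineage markers summed to 14 to 15.5 and 16.5 to 22.2 CPM, T-cell markers to 2.06 to 3.71 and 3.98 to 5.91 CPM, and Cpa3, the 1 mast-cell marker with a row, to 0.766 to 1.41 and 1.21 to 2.22 CPM. The HSC and gate markers summed to 2888 to 3172 CPM in MitolΔ/Δ libraries and 3979 to 4809 CPM in controls, 27.1% of it from Kit. Among them Kit and Hlf fell (adjusted p = 0.00705 and 0.00381 by edgeR, log2 fold changes -0.75 and -0.79, 4 of 4 libraries below every control for both) and Cd48, whose protein the gate excludes, rose from 11.8 ± 7.24 to 39.6 ± 17.4 normalized counts (log2 fold change 1.72, SE 0.48, adjusted p = 0.0450, 4 of 4 libraries above every control, lost in 6 of the 8 left-out fits). The other HSC and gate markers were not called by edgeR. Slamf1, which encodes CD150, was at 353 ± 51.6 in controls and 525 ± 109 in MitolΔ/Δ libraries, 4 of 4 above every control (log2 fold change 0.56, SE 0.16, adjusted p = 0.0501). Mecom, Fgd5 and Ptprc had log2 fold changes of -0.13, -0.10 and -0.02, and Procr, Hoxb5 and Meis1 of -0.34, -0.56 and -0.24. In bulk samples, fewer cells of a type and less RNA per cell cannot be told apart.

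**Figure D2:**
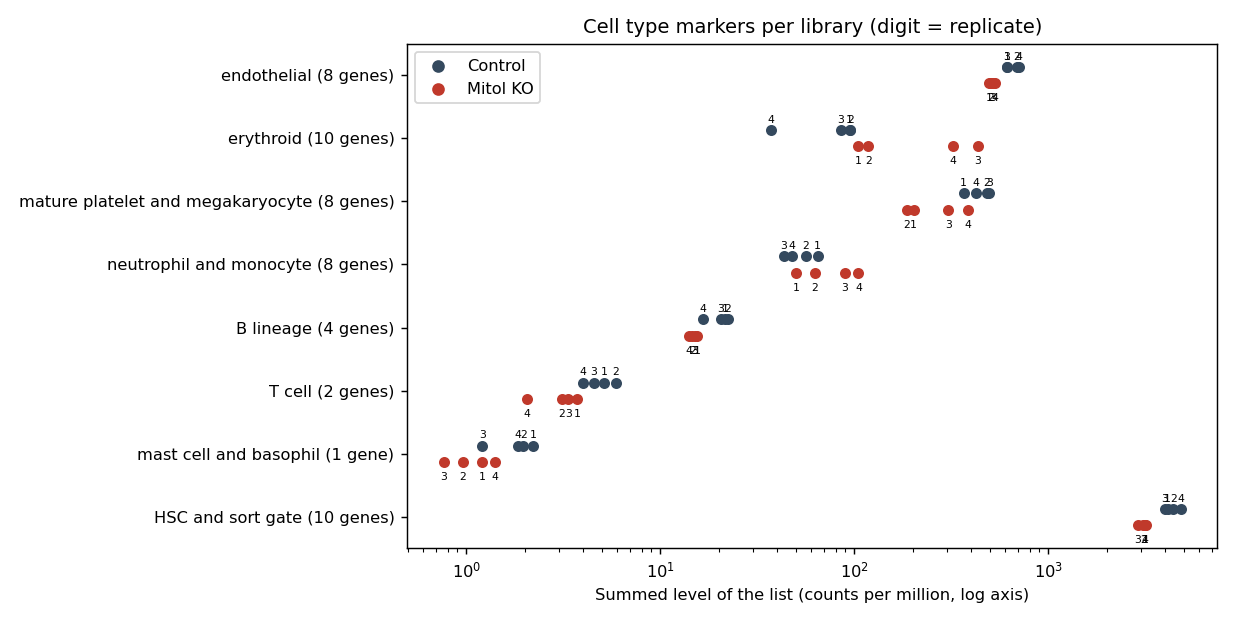
Summed level of each cell type marker list (x axis, CPM, log scale) in the 4 control (blue) and 4 Mitol KO (red) libraries, with replicate numbers beside the points and the number of genes with rows in brackets. The erythroid sum is highest in Mitol KO replicates 3 and 4, at 435 and 321 CPM, and the HSC and gate sum is lower in all 4 Mitol KO libraries than in every control.

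Beyond the members, 135 genes of the megakaryocyte and platelet programme were listed by role, with earlier results of these data known. Of these, 127 were tested, and 9 rose and 17 fell in MitolΔ/Δ HSCs. That is 20.5% called, 7.09% as higher and 13.4% as lower, against 8.43%, 4.68% and 3.75% of all tested genes. The median log2 fold change was -0.08 against -0.02 over all tested genes. Since the lists were written with earlier results known, nothing is read from these counts, or from those of the single lists below, against these shares. Of the 26 called genes, 12 were called with each library left out in turn, among them Gata1, Sparc and Tpm4 as higher and P2rx1, Thbs1, Mmrn1, Nbeal2, Tbxas1, Tubb1 and Trpc6 as lower, and 14 lost the call in at least 1 of those 8 fits.

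Of 21 platelet receptor genes tested, 1 rose and 4 fell, at a median log2 fold change of -0.10. P2rx1, an ATP-gated channel of platelets, fell from 1046 ± 59.9 to 625 ± 21.1 normalized counts (log2 fold change -0.76, SE 0.09, adjusted p = 0.00219 by edgeR, 4 of 4 libraries below every control). Pear1, a platelet contact receptor, and F2rl2, a thrombin receptor, fell by 0.44 and 0.93 on the log2 scale (adjusted p = 0.0201 and 0.0392, 4 and 3 of 4 libraries) and the tetraspanin gene Cd151 rose by 0.38 (adjusted p = 0.0473, 4 of 4 libraries). With 1 library left out, their adjusted p reached 0.0653, 0.109 and 0.127. The 16 uncalled receptors had log2 fold changes from -1.41 to 0.81, and Gp6, Mpig6b and Cd226 are not analysed here.

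The alpha granule list divided, with 3 of 15 tested genes higher and 4 lower at a median log2 fold change of -0.02. Sparc, a secreted matrix protein gene, rose from 3.17 ± 2.77 to 34.0 ± 4.97 normalized counts (log2 fold change 3.46, SE 0.53, adjusted p = 0.00568, 4 of 4 libraries above every control). The control values of Sparc rest on 11 reads in all 4 control libraries together. Thbs1, which encodes thrombospondin, fell from 29.5 ± 11.7 to 2.53 ± 2.78 (log2 fold change -3.57, SE 0.70, adjusted p = 0.0149, 4 of 4 libraries below), on 10 reads in all 4 MitolΔ/Δ libraries together. Mmrn1, the gene of the factor V carrier multimerin, fell from 1422 ± 492 to 681 ± 88.2 (log2 fold change -1.08, SE 0.19, adjusted p = 0.0107, 4 of 4 libraries).

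Nbeal2, which is needed to form alpha granules, fell from 7648 ± 213 to 5339 ± 309 (log2 fold change -0.54, SE 0.07, adjusted p = 0.00381, 4 of 4 libraries). Clu, the clusterin gene and also a mark of aged HSCs, rose from 21.6 ± 12.5 to 106 ± 66.9 (log2 fold change 2.24, SE 0.52, adjusted p = 0.0259, 3 of 4 libraries), and its adjusted p reached 0.0786 with 1 library left out. Srgn, the gene of the granule proteoglycan serglycin, rose by 0.33 and Pdgfb, a growth factor gene, fell by 1.27 on the log2 scale (adjusted p = 0.0494 and 0.0393, 4 and 3 of 4 libraries), and these calls were lost in 6 of the 8 left-out fits each.

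In the dense granule and Rab27 secretion list, Rab27a was the 1 gene called of 21, and the other 20 had log2 fold changes from -0.67 to 0.88. Of 20 genes of integrin activation and platelet signalling, 2 fell and none rose, at a median of -0.12. Tbxas1, which encodes thromboxane synthase, fell from 5292 ± 652 to 3483 ± 411 normalized counts (log2 fold change -0.62, SE 0.11, adjusted p = 0.00970, 4 of 4 libraries below every control). Lat, an adaptor below the collagen receptor, fell by 0.75 on the log2 scale (adjusted p = 0.0409, 4 of 4 libraries, up to 0.117 with 1 library left out).

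Of 14 cytoskeletal genes tested, 2 rose and 2 fell. Tubb1, the beta tubulin of platelets and mature megakaryocytes, had 0.783, 5.20, 3.66 and 2.12 normalized counts in MitolΔ/Δ libraries and 23.7, 26.6, 11.3 and 33.2 in controls (log2 fold change -3.02, SE 0.57, adjusted p = 0.0127, 4 of 4 libraries). Like Pf4 it was a low-count gene in HSCs, and all MitolΔ/Δ libraries were below all controls. Tpm4, a tropomyosin gene, rose from 98.3 ± 9.47 to 197 ± 40.0 (log2 fold change 0.98, SE 0.18, adjusted p = 0.0119, 4 of 4 libraries). Actn1 rose by 0.72 and Zyx fell by 0.37 on the log2 scale (adjusted p = 0.0309 and 0.0346, 4 of 4 libraries each), and left-out fits raised these to at most 0.0891 and 0.104.

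**Figure D3:**
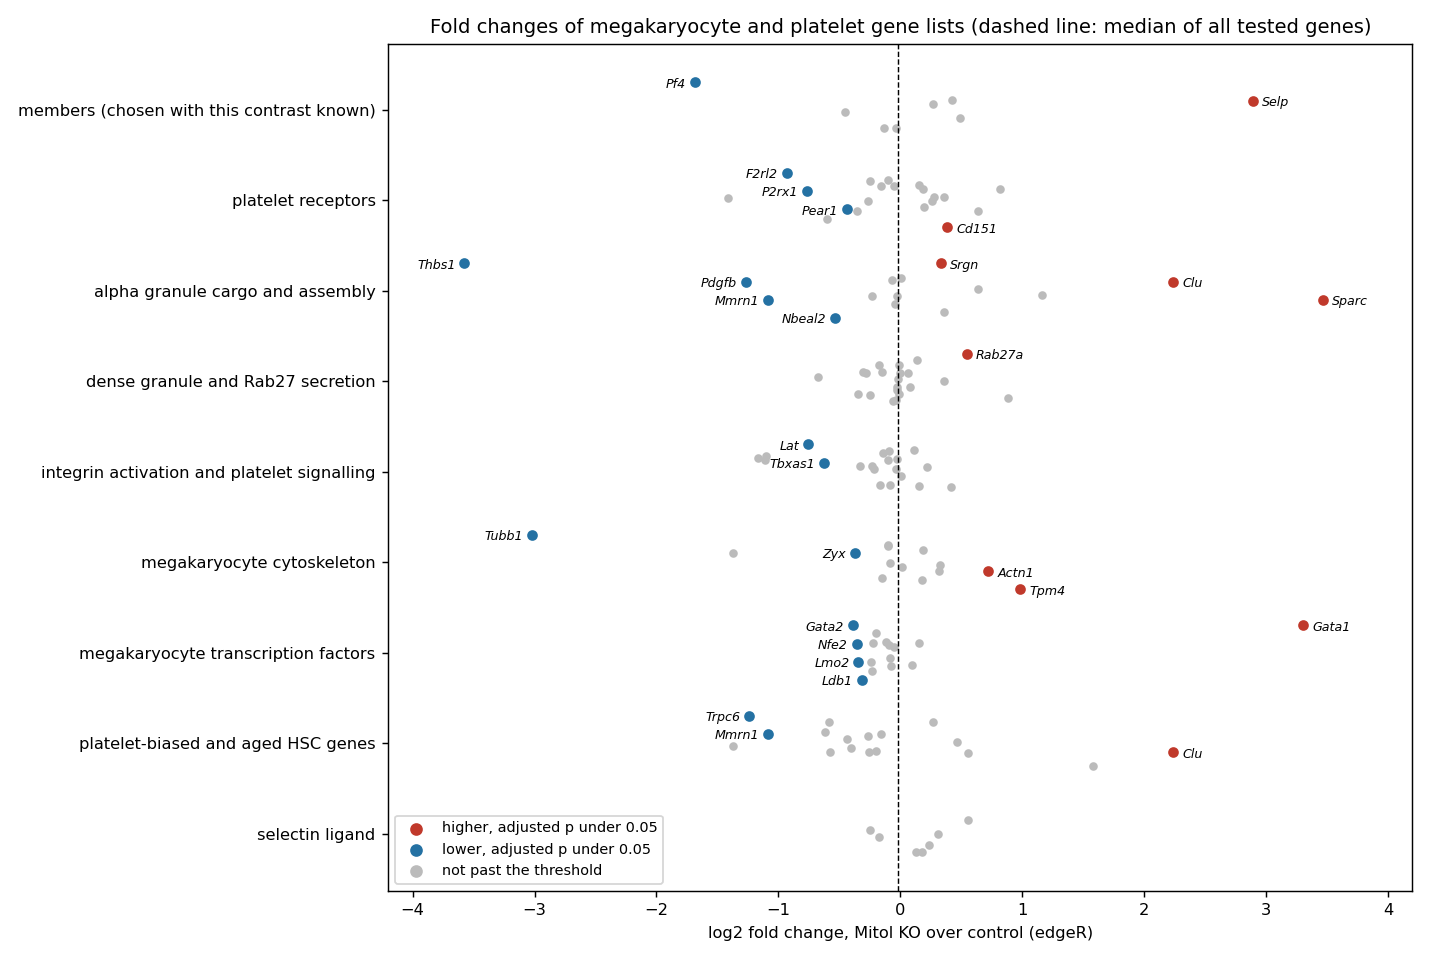
Log2 fold change (x axis, MitolΔ/Δ over control, edgeR) of tested genes of the members and of 8 lists (rows). Red and blue points are past an adjusted p of 0.05 and named, grey points are not, heights within a row carry no value, and the dashed line is the median of all tested genes at -0.02. Selp, Gata1 and Sparc lie farthest to the right, and Thbs1, Tubb1 and Pf4 farthest to the left among named genes.

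The transcription factor list held 1 gene that rose and 4 that fell of 16, at a median log2 fold change of -0.16. Gata1 encodes the GATA factor that megakaryocytic and erythroid cells share. It had 114, 131, 297 and 305 normalized counts in MitolΔ/Δ libraries and 25.1, 31.9, 22.6 and 6.29 in controls, with every MitolΔ/Δ library above every control (log2 fold change 3.30, SE 0.45, adjusted p = 0.00381). As for Selp, the highest values were in replicates 3 and 4, which also had the highest erythroid sums, and without both of these libraries the log2 fold change of Gata1 was 2.53 (adjusted p = 0.00369).

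Gata2, the GATA factor of HSCs, fell from 4677 ± 121 to 3609 ± 476 normalized counts (log2 fold change -0.39, SE 0.09, adjusted p = 0.0287, 4 of 4 libraries). Nfe2, which controls late platelet formation, fell from 2234 ± 281 to 1769 ± 74.1 (log2 fold change -0.36, SE 0.10, adjusted p = 0.0425, 4 of 4 libraries). Lmo2 and Ldb1, partners of GATA factors, fell by 0.34 and 0.32 on the log2 scale (adjusted p = 0.0496 and 0.0351, 4 of 4 libraries each). These 4 calls were fragile: Nfe2 lost its call in each of the 8 left-out fits and the others in 7 of 8, at adjusted p of at most 0.140. Fli1, an ETS factor of megakaryocytes, had a log2 fold change of 0.16 (SE 0.08, adjusted p = 0.263), and Gfi1b, a repressor needed for platelet formation, of -0.23 (SE 0.26, adjusted p = 0.608).

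Of 18 further genes associated with platelet-biased or aged HSCs, 1 rose and 3 fell, at a median log2 fold change of -0.33. Trpc6, a calcium channel gene, fell from 945 ± 314 to 407 ± 84.0 normalized counts (log2 fold change -1.24, SE 0.21, adjusted p = 0.00844, 4 of 4 libraries), and Clu and Mmrn1 were also among the called genes. Nupr1, Alcam and Cavin2 were not called, at log2 fold changes of -0.40, -0.43 and -1.38 (adjusted p = 0.316, 0.129 and 0.246). Also uncalled were Sult1a1, with 146, 215, 842 and 1228 normalized counts in MitolΔ/Δ libraries and 245 to 599 in controls, and Clca3a1, with 85.3, 191, 547 and 1125 against 87.0 to 239. Both were picked out after their values were seen, because they were above every control in replicates 3 and 4 alone, the libraries in which Itga2b and Itgb3 were high. Cpne8 of the same list, also uncalled, had that pattern too, at 74.4, 126, 165 and 164 against 67.8 to 141.

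F5, which encodes coagulation factor V, adjoins Selp on chromosome 1. F5 had 160 ± 86.4 and 157 ± 56.4 normalized counts in the 2 groups (adjusted p = 0.996), and Sele, the endothelial selectin gene, had 0 to 16.9 in any library and was not tested. None of 7 genes for PSGL-1, the main P-selectin ligand, or for the enzymes that modify it was called by edgeR, at log2 fold changes from -0.25 to 0.56.

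The 5 genes whose levels followed Selp most closely over the 8 libraries, out of 12012 with a mean of at least 50 normalized counts, were Pim1, Cpeb2, Acvr1b, Tgfbi and Gata1, at Pearson r of log2 CPM from 0.978 to 0.988. The libraries fall into 2 groups and share the contrast by which Selp was chosen, so these are descriptions with no test. Tgfbi, which encodes a secreted adhesion protein, had 1158, 1435, 1990 and 3102 normalized counts in MitolΔ/Δ libraries and 430, 435, 466 and 195 in controls. The other members were less like Selp, with r of 0.58 for Cd9, 0.49 for Itga2b, 0.29 for Itgb3, 0.25 for Vwf, -0.12 for Gp9 and -0.45 for Rab27b. For Pf4, with a mean below 50 normalized counts, no r was computed.

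**Figure D4:**
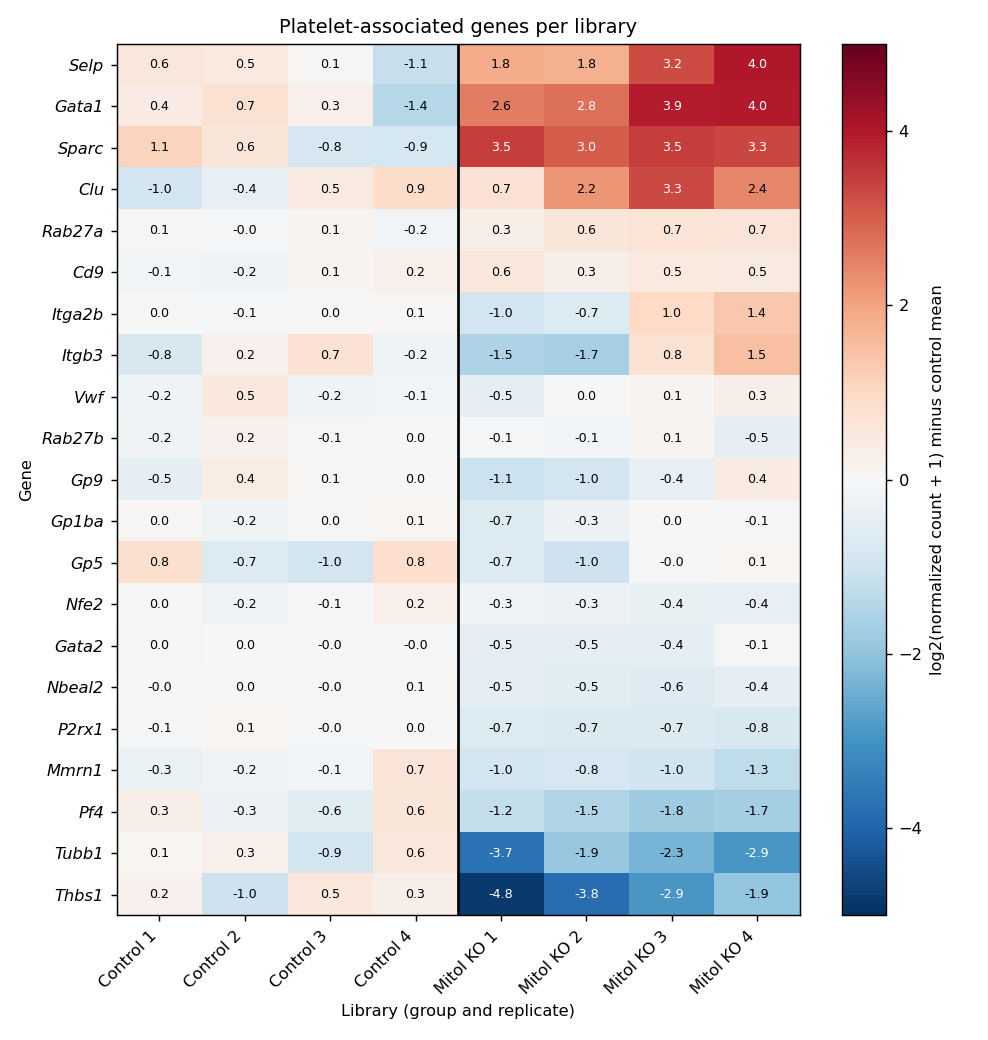
Log2 of the normalized count + 1, less the mean of the 4 control libraries, for members and pathway genes (rows) in each library (columns). Red is above and blue below the control mean, and each cell prints its value. Selp, Gata1 and Sparc are red in all 4 Mitol KO libraries, Itga2b and Itgb3 change from blue in replicates 1 and 2 to red in replicates 3 and 4, and Pf4, Tubb1 and Thbs1 are blue in all 4.

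The counts on named genes ran from 7214935 to 12398138 per library. The targeted gene Marchf5 had 232 to 308 normalized counts in MitolΔ/Δ libraries and 262 to 333 in controls (log2 fold change -0.15, SE 0.13, adjusted p = 0.498 by edgeR, 1 of 4 libraries below every control), so its total count does not mark the deletion, and reads on the deleted exons were not counted apart.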

How the data were processed

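RNA-seq was performed on 4 MitolΔ/Δ and 4 control HSC libraries. Single-end reads of 75 bp were aligned by the authors to mm39 with STAR, merged with samtools and counted per gene with subread, and the counts were deposited without normalization. The annotation and strand setting are not given in the sources used here. Of 23094 rows, each summing to at least 11, the 1029 without a symbol (0.335% to 0.467% of a library's counts) were left out. Of 22065 named genes, 21526 matched GENCODE vM39.

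Genes passing filterByExpr were tested with the quasi-likelihood test of edgeR 4.0.16 in R 4.3.3 (TMM, condition alone, Benjamini-Hochberg adjustment over 16444 genes, adjusted p under 0.05). Normalized counts are counts over DESeq2 1.42.0 size factors. Alternatives were DESeq2 size factors, library totals, 2 other filters, the DESeq2 Wald test, limma-voom (limma 3.58.1), the replicate number as a block, and each library left out. The fits were tested on simulated counts. Outside the members, the text names genes past the threshold, at most 5 per list and direction, the 5 most like Selp, leading markers and a short set list of megakaryocyte genes. A few listed genes are not reported here. The members, lists and rules were chosen with earlier results of these data known. Precision is limited by 4 libraries of 100 cells per group, and reads, not molecules, were counted.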

Additional observations from a re-analysis of the deposited data

Results flagged for a closer look

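In 5 of 104 groups of 4 libraries, 1 library stood apart from its group by Dixon's criterion at the 95% level. Chance gives this in about 1 of 20 groups. The groups examined came from part of the named genes and from the marker sums. Vwf had 4059 normalized counts in control replicate 2 against 2427 to 2589 in the other controls. Mmrn1 had 2152 in control replicate 4 against 1081 to 1256, Tbxas1 had 6267 there against 4902 to 5020, and Cavin2 had 157 there against 22.4 to 24.5. Gata2 had 4318 in MitolΔ/Δ replicate 4 against 3294 to 3433 in the other MitolΔ/Δ libraries. Some named genes outside the groups examined also had a library that stood apart. In MitolΔ/Δ replicate 3 Slc4a1 had 1387 against 0 to 2.08 and Hba-a1 had 388 against 0 to 5.29. Car1 had 523 in MitolΔ/Δ replicate 4 against 0 to 6.41. Among controls, Tgfbi had 195 in replicate 4 against 430 to 466, and Hoxb5 had 89.7 in replicate 1 against 113 to 117.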

How the results depend on the processing

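Over all genes the number called was 1386, against 2315 by the DESeq2 Wald test, 359 to 2501 with 1 library left out (359 without control replicate 2) and 2422 without MitolΔ/Δ replicates 3 and 4. The members called higher were 1 (Selp) throughout, except 2 (Selp and Cd9) by the DESeq2 Wald test, and 1 to 1 with 1 library left out. The members called lower were 1 (Pf4) with all 8 libraries under every setting. With 1 library left out they were 0 to 2, namely 0 without MitolΔ/Δ replicate 2, MitolΔ/Δ replicate 3 or control replicate 4 and 2 (Pf4 and Gp9) without MitolΔ/Δ replicate 4, and they were 3 (Itga2b, Itgb3 and Gp9) without MitolΔ/Δ replicates 3 and 4. The cause was not tested. Of the listed pathway genes, 9 were called higher, against 4 to 10 with 1 library left out (5 without MitolΔ/Δ replicate 2 or 3, 4 without control replicate 2). The 17 called lower became 8 to 18 (8 without MitolΔ/Δ replicate 2 or 3 or control replicate 2, 9 without MitolΔ/Δ replicate 1 or control replicate 4, 11 without control replicate 3). All 26 named pathway genes that were called kept their direction under all 16 alternatives. F5, which was not called and had a log2 fold change near 0, turned negative with library totals (-0.053), limma-voom (-0.061), the replicate block (-0.087) and without MitolΔ/Δ replicate 1 (-0.19), MitolΔ/Δ replicate 2 (-0.27) or control replicate 3 (-0.19), within a range of -0.27 to 0.26 over the left-out libraries.

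Libraries with the same replicate number did not deviate together (correlations of -0.07 to 0.08), so the numbers were not read as pairs. With the replicate block 1652 genes, 1 and 1 members, and 9 and 16 pathway genes were called higher and lower.

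Pf4, Thbs1, Tubb1, Ppbp and Sele had low counts, as did Sparc in controls. Ppbp and Sele were not tested for that reason. The MitolΔ/Δ libraries of Itga2b and Itgb3 lay on both sides of the controls. Whether more reads or more libraries would change these values was not tested.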
